A study of Arabidopsis thaliana with 18 samples.

Results

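Of 14229 measured genes in Arabidopsis thaliana seedlings, 273 (1.92%) had a mean level at least 5 times as high after coronatine as after DMSO, and their values are described here. The members were chosen from the deposited table of normalized counts: for each gene the mean of the 3 coronatine libraries without NaCl was divided by the mean of the 3 DMSO libraries without NaCl, and a ratio of at least 5 was kept. Those 6 libraries therefore fix which genes are in the set. The difference between them is given as a description and was not tested.

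Seedlings of the Col-0 ecotype were grown in liquid medium and whole seedlings were harvested. The 6 groups of 3 libraries were 5 µM coronatine with 100 mM NaCl, 5 µM DPAM-1 with 100 mM NaCl, 1% DMSO with 100 mM NaCl, 5 µM coronatine, 5 µM DPAM-1, and 1% DMSO. All groups share the Col-0 background, and the labels name no transgene or mutation. Compounds were given 4 days after germination, NaCl followed after 16 h, and the NaCl groups were collected 2 h later. No solvent is given for coronatine or DPAM-1, and a mock addition or collection time is not given where NaCl was absent, so effects of solvent, handling and time cannot be told apart from those of the compound or of NaCl. DPAM-1 is known from the labels by its code name. The labels number the replicates without saying whether they came from separate cultures, so p-values measure the spread between these libraries, which may be technical.

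Coronatine is a toxin of Pseudomonas syringae that acts in place of jasmonoyl-isoleucine, the form of the wound hormone jasmonate that the receptor perceives. It brings the receptor COI1 together with JAZ repressors, the JAZ proteins are degraded, and MYC2 and related transcription factors that bind G-box-like DNA are freed. In leaves the pathway is known for feedback induction of JAZ and jasmonate biosynthesis genes and for defence against chewing insects through storage proteins, protease inhibitors, glucosinolates and the enzymes that activate them.

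The bases before the annotated gene start were read for 272 members from the RefSeq genome of the TAIR10.1 build, with its own annotation. They are shown because members share letters there that the rule did not use. The sequences are the 250 bases that end just before the start, 5′ to 3′ on the strand of the gene, with capitals marking CACGTG (the G-box) and AACGTG or its reverse complement CACGTT (a G-box variant). VSP1 (chr5:8509202-8509451, minus strand), NATA1 (chr2:16297860-16298109, plus), AOS (chr5:17099596-17099845, minus), JAZ3 (chr3:6119457-6119706, plus), MYC2 (chr1:11801408-11801657, minus), NAC019 (chr1:19698483-19698732, minus), ZAT10 (chr1:9649324-9649573, minus) and CYP83B1 (chr4:15275405-15275654, minus) were chosen, after their letters had been seen, from different roles in the set.
VSP1: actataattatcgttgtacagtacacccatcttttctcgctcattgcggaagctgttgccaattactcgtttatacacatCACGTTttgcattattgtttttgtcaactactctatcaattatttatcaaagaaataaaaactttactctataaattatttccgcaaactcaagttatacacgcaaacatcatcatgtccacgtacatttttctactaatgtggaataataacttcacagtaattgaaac
NATA1: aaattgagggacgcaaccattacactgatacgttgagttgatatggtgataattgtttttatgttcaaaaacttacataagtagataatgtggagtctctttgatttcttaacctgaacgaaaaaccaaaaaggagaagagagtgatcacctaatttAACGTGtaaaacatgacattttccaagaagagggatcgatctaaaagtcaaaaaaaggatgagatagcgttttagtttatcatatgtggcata
AOS: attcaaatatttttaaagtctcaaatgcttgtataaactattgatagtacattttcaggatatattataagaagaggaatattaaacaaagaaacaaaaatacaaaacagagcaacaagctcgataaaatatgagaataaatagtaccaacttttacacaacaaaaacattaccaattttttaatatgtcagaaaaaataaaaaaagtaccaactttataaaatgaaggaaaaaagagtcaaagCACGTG
JAZ3: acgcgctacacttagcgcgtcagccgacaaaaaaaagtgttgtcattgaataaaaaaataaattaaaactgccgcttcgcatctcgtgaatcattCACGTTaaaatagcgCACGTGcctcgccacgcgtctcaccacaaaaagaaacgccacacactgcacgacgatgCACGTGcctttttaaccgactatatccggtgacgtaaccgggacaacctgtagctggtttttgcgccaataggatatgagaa
MYC2: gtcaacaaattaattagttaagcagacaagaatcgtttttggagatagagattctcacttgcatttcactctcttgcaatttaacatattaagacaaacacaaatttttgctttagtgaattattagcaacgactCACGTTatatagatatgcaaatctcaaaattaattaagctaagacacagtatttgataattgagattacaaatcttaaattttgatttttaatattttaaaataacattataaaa
NAC019: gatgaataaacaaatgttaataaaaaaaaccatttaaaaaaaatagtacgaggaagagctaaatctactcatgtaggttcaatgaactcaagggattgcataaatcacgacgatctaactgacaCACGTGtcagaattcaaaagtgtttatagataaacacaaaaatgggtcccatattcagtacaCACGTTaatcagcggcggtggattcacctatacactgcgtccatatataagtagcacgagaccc
ZAT10: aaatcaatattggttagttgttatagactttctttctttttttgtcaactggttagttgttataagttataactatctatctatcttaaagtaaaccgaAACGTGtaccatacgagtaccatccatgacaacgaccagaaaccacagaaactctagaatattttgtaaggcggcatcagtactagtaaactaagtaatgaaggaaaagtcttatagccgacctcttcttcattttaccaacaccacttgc
CYP83B1: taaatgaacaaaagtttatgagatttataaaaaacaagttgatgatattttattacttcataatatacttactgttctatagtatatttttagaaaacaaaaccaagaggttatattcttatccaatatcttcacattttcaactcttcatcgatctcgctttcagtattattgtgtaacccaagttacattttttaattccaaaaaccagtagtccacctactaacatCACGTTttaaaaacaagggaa
None of the 8 stretches overlaps another annotated gene. JAZ3 held 3 of these motifs and NAC019 held 2, and each of the other sequences held 1. The distance from the first base of the motif to the gene start ran from 6 bases in AOS to 170 bases in VSP1.

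Motifs were searched on both strands. AACGTG stood before 68 of 272 members (25.0%) and before 1060 of 14103 measured genes with sequence (7.52%). CACGTG stood before 41 members (15.1%) and 7.59% of the measured genes. At least one of these motifs was present before 104 members (38.2%), against 2020 measured genes (14.3%), and 5 members held both. CACATG, another form bound by bHLH proteins, was found before 51 members (18.8%), against 10.8% of the measured genes. TTGAC, the core of the W box of WRKY factors, was at 48.2% of members and 44.1% of the measured genes, and TATAAA at 55.9% of members and 46.0% of the measured genes. GCCGCC, the GCC box of ethylene response factors, stood before 2 members (0.735%) and 1.94% of the measured genes. Of the members with AACGTG, 1 had it overlapping another motif of the search, and of those with CACGTG 3 did. Among the 54 members with a ratio of at least 20, AACGTG was before 20 (37.0%); it was before 24.4% of those from 10 to under 20 and 20.6% of those under 10. The matching shares for CACGTG were 11.1%, 18.3% and 14.7%, with no order. VSP2, LOX2 and JAZ10 had neither motif in this window. Shares of letters are descriptions, were not tested, and do not show binding.

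**Figure D1:**
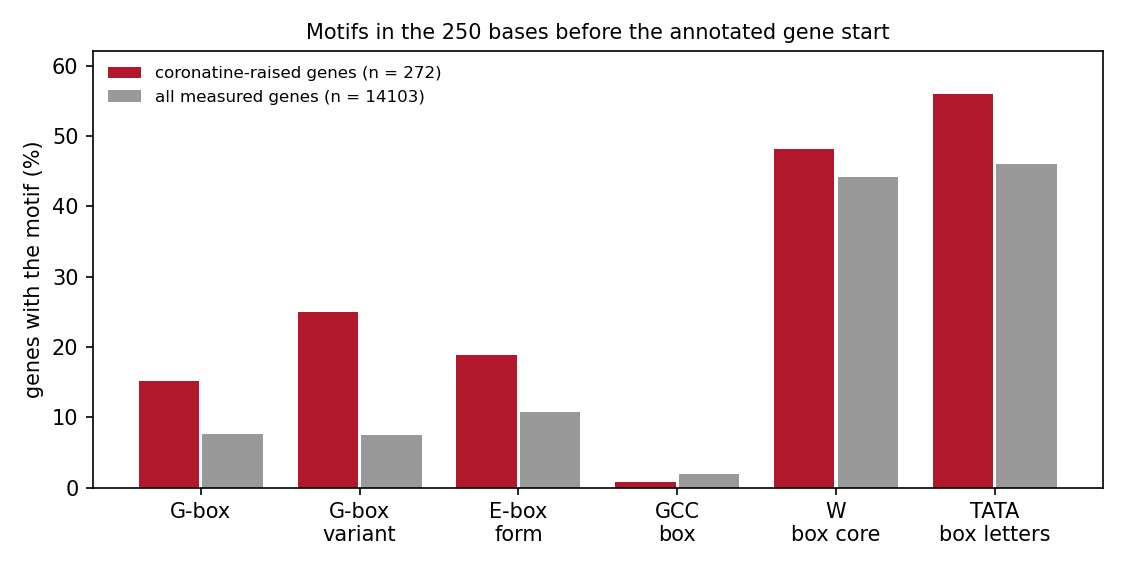
Percent of genes with each motif in the 250 bases before the annotated start, for 272 coronatine-raised genes (left bars) and all 14103 measured genes with sequence (right bars); the y axis starts at 0. The G-box variant was at 25.0% against 7.52% and the G-box at 15.1% against 7.59%, while the W box core was at 48.2% against 44.1%.

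Library totals lay between 13638981 and 37279056 counted reads, and the lowest count of any gene in any library was 30, so every statement is limited to genes with reads in each library. The 273 genes took 14.8%, 14.3% and 14.4% of the reads in coronatine libraries with NaCl, against 1.25%, 1.38% and 1.25% in DPAM-1 libraries with NaCl and 1.14%, 1.16% and 1.16% in DMSO libraries with NaCl. Without NaCl they took 12.4%, 11.5% and 11.3% after coronatine, 1.00%, 1.49% and 1.05% after DPAM-1, and 1.03%, 0.979% and 1.05% in DMSO. One DPAM-1 library stands apart on these genes: 236 of the 273 were highest in replicate 2 among the 3 DPAM-1 libraries without NaCl, against 34.0% of all genes. The median ratio of DPAM-1 to DMSO and the number of members called between DPAM-1 with NaCl and DPAM-1 are given with and without it below.

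**Figure D2:**
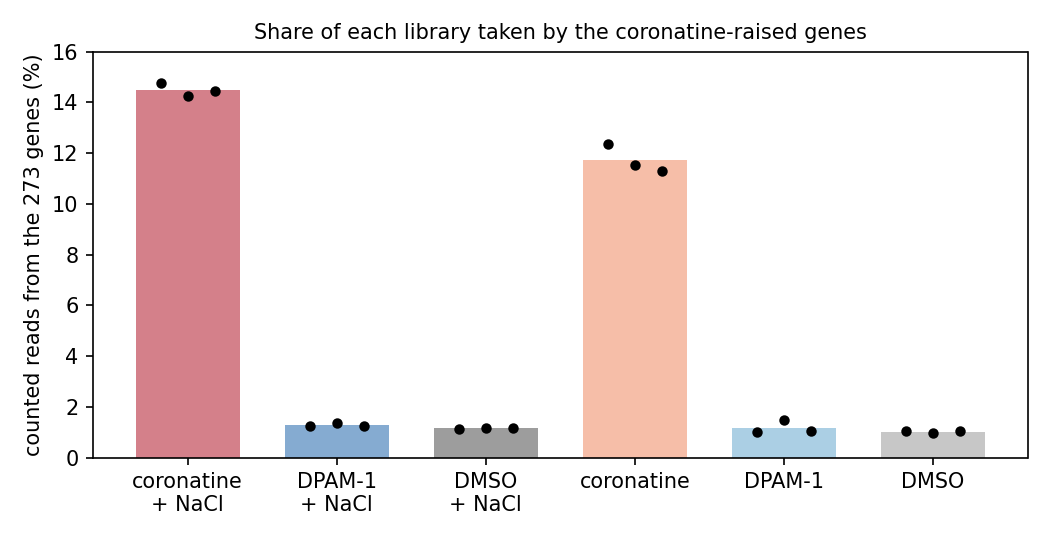
Percent of all counted reads that came from the 273 genes, for 6 groups; bars are means of 3 libraries, points are libraries, and the y axis starts at 0. The coronatine libraries with NaCl lie between 14.3% and 14.8% and those without between 11.3% and 12.4%, while all DPAM-1 and DMSO libraries lie between 0.979% and 1.49%.

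Seedling tissue was checked with 18 marker genes, none of which was a member or at 0 in any library, and 5 seed storage markers were not measured. The summed normalized counts of the 5 shoot photosynthesis markers were 772750 to 788462 in coronatine with NaCl and 703162 to 788947 in DMSO with NaCl, ranges that overlap, and most of each sum was RBCS1A. Of the 5, 1 was called lower, the carbonic anhydrase CA1, with 9179, 10602 and 9863 in coronatine with NaCl, against 15956, 19752 and 18563 in DMSO with NaCl. The 2 myrosin cell markers TGG1 and TGG2, which are thioglucosidases, summed to 7293 to 7725 in coronatine with NaCl and 4421 to 4998 in DMSO with NaCl, and both passed the test. The 5 root hair markers summed to 3592 to 3957 in coronatine with NaCl against 2630 to 3444 in DMSO with NaCl, with 3 called higher. The 4 endodermis markers summed to 1011 to 1370 in coronatine with NaCl against 1412 to 1495 in DMSO with NaCl, with 0 called. The 2 guard cell markers summed to 410 to 431 in coronatine with NaCl against 312 to 377 in DMSO with NaCl, with 1 called higher. The part of these marker levels in the results was not tested. In whole seedlings, fewer cells of a type and less RNA per cell cannot be told apart.

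The ratio of coronatine to DMSO without NaCl, which chose the members, had a median of 9.98 and a maximum of 68.0. It was at least 10 in 136 members, at least 20 in 54 and at least 50 in 3. In all 273 members every coronatine library was above every DMSO library, which follows closely from the rule. The lowest coronatine library was at least 3.49 times the highest DMSO library. Just inside the limit stood AT3G19200 (5.02), AT3G08990 (5.03) and AT5G01850 (5.03), and just outside it KIN2 (AT5G15970, 4.99), SWEET16 (AT3G16690, 4.97) and WRKY18 (AT4G31800, 4.96). AT3G19200 had 608, 485 and 536 normalized counts after coronatine, against 135, 86.0 and 104 in DMSO, and KIN2 had 14189, 12752 and 12072 after coronatine, against 2835, 2565 and 2420 in DMSO. In both genes, inside and outside the limit, the coronatine libraries lie well above the DMSO libraries. The levels are normalized counts, which are not scaled to gene length, so they are compared between libraries and not between genes.

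The 12 highest ratios belonged to AT1G73325, annotated as a Kunitz-type protease inhibitor (68.0), AT1G66100, annotated as a thionin (53.3), the jacalin-related lectin JAL23 (AT2G39330, 52.8), the acetyltransferase NATA1 (AT2G39030, 45.9), which acetylates ornithine, the sterol desaturase family member CYP710A4 (AT2G28860, 41.1), the ER-body β-glucosidase BGLU18 (AT1G52400, 40.6), the annotated nucleoside phosphatase AT1G14250 (39.8), the myrosinase-binding protein MBP1 (AT1G52040, 39.2), the TSK-associating protein TSA1 of ER bodies (AT1G52410, 37.3), AT4G02360 of unknown function (36.9), the annotated invertase or pectin methylesterase inhibitor AT1G70720 (36.8) and the annotated hydrolase AT4G17470 (36.7). AT1G73325 had 5683, 7362 and 3793 normalized counts after coronatine, against 96.6, 80.0 and 71.1 in DMSO. NATA1 had 70633, 70146 and 59648 after coronatine, against 1336, 1466 and 1563 in DMSO. The coronatine libraries of AT1G73325 are spread more widely than those of NATA1, and in both genes the groups are far apart.

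A comparison that the rule did not use is coronatine with NaCl against DMSO with NaCl, which asks whether the same genes are higher in other libraries of the same treatment. Levels were tested with the quasi-likelihood test of edgeR on the counts, fitted to all 18 libraries, and calls required a p under 0.05 after Benjamini-Hochberg adjustment across the 14229 genes. All 273 members were called higher and 0 lower, by edgeR and by DESeq2 alike, and 273 had an unadjusted p under 0.05. Over all genes 23.8% were called higher and 24% lower, 47.8% in either direction. The median log2 fold change of the members was 3.53, with a range from 0.69 to 6.33, and that of all genes was -0.01. In all 273 members every coronatine library with NaCl was above every DMSO library with NaCl, against 29.7% of all genes. A ratio of at least 5 with NaCl was reached by 247 of the 273 members and by 315 genes in all.

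The members at the top of the set were again high. JAL23 had 25376, 22184 and 21690 normalized counts in coronatine with NaCl, against 283, 274 and 303 in DMSO with NaCl, a log2 fold change of 6.33 ± 0.24 (edgeR adjusted p = 2.57e-16), where ± after a log2 fold change is its standard error here and below. NATA1 had 95802, 95801 and 96866 in coronatine with NaCl, against 1272, 1274 and 1319 in DMSO with NaCl, 6.22 ± 0.26 (edgeR adjusted p = 2.23e-15). BGLU18 had 124484, 124340 and 127317 in coronatine with NaCl, against 2677, 2790 and 2747 in DMSO with NaCl, 5.52 ± 0.20 (edgeR adjusted p = 1.45e-16). In each of these genes the libraries of a group lie close together and the groups do not overlap. The smallest p-values of the comparison were those of the peptide methionine sulfoxide reductase PMSR2 (AT5G07460, 3.61 ± 0.08, edgeR adjusted p = 3.09e-19) and the mannan synthase family gene ATCSLA15 (AT4G13410, 4.91 ± 0.11, edgeR adjusted p = 3.09e-19), followed by BGLU21, AT4G02360, AT4G29690 and MES7.

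Repressors of the jasmonate pathway made up 7 members, from 9 measured genes of a list of JAZ repressors. With NaCl all 9 were called higher after coronatine than after DMSO. JAZ10 (AT5G13220), a repressor with stable splice forms, had 18698, 19851 and 21329 normalized counts in coronatine with NaCl, against 847, 959 and 862 in DMSO with NaCl, a log2 fold change of 4.49 ± 0.19 (edgeR adjusted p = 1.55e-15). JAZ5 (AT1G17380) was at 3.51 ± 0.21, JAZ9 (AT1G70700) at 3.88 ± 0.27 and JAZ1 (AT1G19180) at 2.70 ± 0.11. The measured genes of the list outside the set were JAZ11 and JAZ12. JAZ2, JAZ3 and JAZ6 were the other members. A wider search of annotated product names counted 12 measured genes as jasmonate-zim-domain proteins, with the same 7 as members.

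Transcription factors of the pathway gave 4 members of 9 measured, and 6 of the 9 were called higher and 0 lower with NaCl. MYC2 (AT1G32640), the central bHLH factor, had 4976, 4806 and 5093 normalized counts in coronatine with NaCl, against 751, 981 and 645 in DMSO with NaCl, 2.65 ± 0.14 (edgeR adjusted p = 9.57e-14). NAC019 (AT1G52890), a NAC factor that acts below MYC2, had 3803, 3210 and 2932 in coronatine with NaCl, against 159, 82.7 and 227 in DMSO with NaCl, 4.39 ± 0.31 (edgeR adjusted p = 3.21e-11). Its relative NAC055 (AT3G15500) was at 3.77 ± 0.16 and the bHLH repressor JAM1 (AT2G46510) at 3.15 ± 0.13. The DMSO libraries of NAC019 were spread widely, and the groups still did not overlap.

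Jasmonate is made from linolenic acid by lipoxygenases, allene oxide synthase and allene oxide cyclases in the chloroplast, and then by OPR3 and OPCL1 in the peroxisome. Of 18 measured biosynthesis genes, 7 were members, and 14 of the 18 were called higher and 1 lower in coronatine with NaCl against DMSO with NaCl. LOX2 (AT3G45140), a chloroplast lipoxygenase, had 79360, 88267 and 86460 normalized counts in coronatine with NaCl, against 4711, 4782 and 5506 in DMSO with NaCl, 4.08 ± 0.17 (edgeR adjusted p = 1.71e-15). AOS (AT5G42650), the allene oxide synthase, had 39285, 40009 and 40180 in coronatine with NaCl, against 2453, 2386 and 3471 in DMSO with NaCl, 3.84 ± 0.15 (edgeR adjusted p = 7.07e-16). The cyclases AOC1 (AT3G25760) and AOC2 (AT3G25770), which lie side by side and are alike in sequence, so that reads may be split between them, were at 4.16 ± 0.23 and 3.62 ± 0.14.

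Of 6 measured genes that conjugate or break down the hormone, 5 were members, and 5 of 6 were called higher and 0 lower. CYP94B1 (AT5G63450), which oxidises jasmonoyl-isoleucine, had 3312, 3117 and 3282 normalized counts in coronatine with NaCl, against 156, 151 and 173 in DMSO with NaCl, 4.33 ± 0.19 (edgeR adjusted p = 4.31e-15). CYP94C1 (AT2G27690), the enzyme of the next oxidation step, had 1201, 1001 and 1137 in coronatine with NaCl, against 352, 138 and 118 in DMSO with NaCl, 2.41 ± 0.31 (edgeR adjusted p = 7.72e-07). The amidohydrolases ILL6 (AT1G44350) and IAR3 (AT1G51760), which cleave the conjugate, were also higher, ILL6 by 3.18 ± 0.19. A single high DMSO library with NaCl widens the range of CYP94C1 in DMSO.

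Among 21 measured wound and anti-herbivore genes, 12 were members. In coronatine with NaCl 16 of the 21 were called higher and 1 lower than in DMSO with NaCl. The vegetative storage proteins VSP1 (AT5G24780) and VSP2 (AT5G24770), acid phosphatases that serve as jasmonate markers, are neighbours whose reads may be split between them. VSP2 had 183316, 172564 and 172787 normalized counts in coronatine with NaCl, against 3509, 3536 and 3605 in DMSO with NaCl, 5.63 ± 0.24 (edgeR adjusted p = 1.88e-15), and VSP1 was at 5.73 ± 0.26. Aminotransferase TAT3 (AT2G24850) was at 4.77 ± 0.27, and chlorophyllase CLH1 (AT1G19670) at 5.04 ± 0.20.

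ER bodies are compartments that store β-glucosidases, and myrosinases with their binding partners cleave glucosinolates when tissue is damaged. All 19 measured genes of that list were called higher after coronatine with NaCl, and 8 were members, among them BGLU18, TSA1, MBP1 and MBP2 (AT1G52030, 5.04 ± 0.19). The myrosin cell markers TGG1 and TGG2 were higher in the same libraries, and at least TGG1 is itself among the 19 genes counted. The part of myrosin cells in the levels of the other genes was not tested. Of 26 measured genes of tryptophan and indole glucosinolate synthesis, 12 were members, and 25 were called higher and 1 lower. CYP79B3 (AT2G22330), which makes indole-3-acetaldoxime from tryptophan, had 5780, 6224 and 6333 normalized counts in coronatine with NaCl, against 445, 487 and 472 in DMSO with NaCl, 3.71 ± 0.11 (edgeR adjusted p = 3.36e-18). The methyltransferase IGMT5 (AT1G76790) was at 4.56 ± 0.18, the indole glucosinolate hydroxylase CYP81F4 (AT4G37410) at 3.63 ± 0.10 and the nitrilase NIT3 (AT3G44320) at 3.94 ± 0.13. None of 15 measured aliphatic glucosinolate genes was a member, where 1.92% of all measured genes were. With NaCl 6 of the 15 were called higher and 5 lower, with a median log2 fold change of 0.12.

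Sulfur and glutathione genes gave 5 members of 26 measured, with 21 called higher and 4 lower with NaCl. The adenosine 5′-phosphosulfate kinase APK2 (AT4G39940), which makes the sulfate donor of glucosinolates, was at 3.40 ± 0.10, SDI1 (AT5G48850), a repressor of glucosinolate synthesis under sulfur deficiency, at 4.51 ± 0.25, LSU1 (AT3G49580) at 3.65 ± 0.22 and the ATP sulfurylase APS3 (AT4G14680) at 2.24 ± 0.14. Anthocyanin genes gave UF3GT (AT5G54060, 2.52 ± 0.15), LDOX (AT4G22880, 2.18 ± 0.17) and DFR (AT5G42800, 2.09 ± 0.13), 3 of 18 flavonoid genes, of which 15 were called higher and 2 lower. The geranyllinalool synthase TPS04 (AT1G61120) was at 5.22 ± 0.25. Ascorbate recycling enzymes MDAR3 (AT3G09940) and DHAR1 (AT1G19570) were at 4.17 ± 0.14 and 3.67 ± 0.10, out of 3 members among 18 ascorbate, tocopherol and redox genes, of which 13 were called higher and 1 lower. The list of glutathione transferases gave 3 members of 25, GSTU4 (AT2G29460), GSTU5 (AT2G29450) and GSTU6 (AT2G29440), neighbours of similar sequence. Of the 25, 13 were called higher and 8 lower with NaCl. GSTU26 (AT1G17190), a tau-class glutathione transferase outside that list, was also a member, with a ratio of 12.4 without NaCl. By annotated product name 4 of 18 measured tau-class genes were members.

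Drought and osmolyte genes gave 3 members of 21 measured: the galactinol synthase GOLS1 (AT2G47180, 4.74 ± 0.18), the caleosin RD20 (AT2G33380, 3.68 ± 0.29) and the cold-induced KIN1 (AT5G15960, 2.12 ± 0.20), whose reads may be shared with the near-identical KIN2. Of the 21, 10 were called higher and 7 lower after coronatine with NaCl, so the list as a whole was divided. Among senescence genes 3 of 13 were members, CLH1, the dark-induced oxygenase DIN11 (AT3G49620, 3.76 ± 0.20) and the asparagine synthetase ASN1 (AT3G47340, 3.69 ± 0.21), and 9 of the 13 were called higher and 3 lower. The calmodulin-like calcium sensors CML39 (AT1G76640, 5.87 ± 0.24) and CML38 (AT1G76650, 2.37 ± 0.19) were the members of 10 calcium genes, 3 of which were called higher and 3 lower. Of 20 stress transcription factors WRKY40 (AT1G80840, 1.50 ± 0.16) and ZAT10 (AT1G27730, 0.69 ± 0.13) were members, and 11 were called higher and 4 lower. No gene of 17 in phenylpropanoid and monolignol synthesis or of 22 in auxin, gibberellin, ethylene and cytokinin pathways was a member. Over all measured genes 1.92% were members, so lists this short can easily hold none. After coronatine with NaCl 8 of the 17 were called higher and 7 lower. Of the 22, 7 were called higher and 12 lower, with a median log2 fold change of -0.54.

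In all, 74 members were in at least 1 list and 199 in none. Annotated product names, read after the members were known, put 6 of 14 methionine sulfoxide reductases, which repair oxidised methionine, in the set, with ratios from 7.36 to 23.4. They also put in it 8 of 19 knottin, defensin and trypsin inhibitor proteins, 6 of 20 jacalin-type lectins and myrosinase-binding proteins, 5 of 7 MD-2-related lipid recognition proteins, 3 of 4 annexins, 3 of 4 elicitor peptide precursors, 3 of 4 oxidosqualene cyclases and 23 of 88 cytochromes P450. These shares stand beside 1.92% of all measured genes. Families were chosen because members were seen in them, so the shares are descriptions, and copies of a family may share reads.

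Members often lay next to each other on the chromosomes, a description with no test. Of 272 members placed in the gene order of the TAIR10.1 annotation, 62 (22.8%) had another member as direct neighbour, against 236 of 13830 other measured genes (1.71%) that had a member as direct neighbour. With at most 1 gene between them, 71 members formed 30 runs, of which 7 held 3 or more. One is the thalianol cluster, whose triterpene is made in roots: AT5G47980, CYP705A5 (AT5G47990), CYP708A2 (AT5G48000) and the synthase THAS1 (AT5G48010) had ratios from 9.03 to 16.7. With NaCl the ratio was 18.9 for THAS1, 21.1 for CYP705A5 and 24.8 for CYP708A2, an enzyme that oxidises thalianol. Another is the marneral cluster, where CYP705A12, CYP71A16 and the synthase MRN1 had ratios from 15.5 to 31.3, and MRN1 had a ratio of 36.4 with NaCl. The arabidiol synthase PEN1 (10.4) stood beside CYP705A1 (14.7). Some runs are tandem copies of a gene, such as MSRB7, MSRB8 and MSRB9 or GSTU4 to GSTU6, while BGLU18 and TSA1 are unlike neighbours. AT1G48598 and PMEAMT (AT1G48600), which overlap, had identical counts in every library and count as a single measurement that fills 2 places in the set.

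The distance of some members from their DMSO level differed with NaCl. The ratio of coronatine to DMSO was higher with NaCl than without in 182 members and lower in 91. The ratios without NaCl chose the members, and the difference between the ratios was not tested. It was at least 2 times as high in 12 members. The glucosyltransferase UGT76E12 (AT3G46660) had the widest gap, with a ratio of 45.1 with NaCl and 6.60 without. It had 3989, 3332 and 3214 normalized counts in coronatine with NaCl, against 74.5, 58.0 and 101 in DMSO with NaCl, and 480, 331 and 533 in coronatine, against 59.6, 58.3 and 85.5 in DMSO. The DMSO levels of this gene overlap between NaCl and no NaCl, and the coronatine levels do not. The annotated phosphoglycerate mutase AT5G04120 (51.5 with NaCl and 15.8 without), the mannan synthase family gene CSLA01 (AT4G16590, 63.1 and 22.6), TPS04 (36.9 and 13.4) and the γ-glutamyl cyclotransferase GGCT2;1 (AT5G26220, 30.9 and 12), which breaks down glutathione, follow in ratio with NaCl and without.

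The ratio with NaCl was at most 0.5 times that without in 11 members. ZAT10, a zinc-finger repressor of stress responses, had 2152, 1791 and 2010 normalized counts in coronatine with NaCl, against 1063, 1381 and 1248 in DMSO with NaCl, and 745, 658 and 637 in coronatine, against 95.6, 159 and 97.9 in DMSO. It was higher with NaCl in every library of both treatments, and its DMSO mean was 10.5 times as high with NaCl as without. TPPJ (AT5G65140), a trehalose-6-phosphate phosphatase, had 192, 194 and 199 in coronatine with NaCl, against 112, 123 and 128 in DMSO with NaCl, and 241, 213 and 228 in coronatine, against 41.1, 32.6 and 49.4 in DMSO. Its call in coronatine with NaCl against DMSO with NaCl (0.69 ± 0.16, edgeR adjusted p = 0.00108) ended when libraries were scaled by their totals alone, at a log2 fold change of 0.36, where the median of all genes moved to -0.34. The gene AR781 (AT2G26530) had ratios of 2.15 with NaCl and 8.62 without, the uncharacterized AT3G10930 2.15 with NaCl and 7.09 without, and CYP94C1 5.49 with NaCl and 21.1 without.

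**Figure D3:**
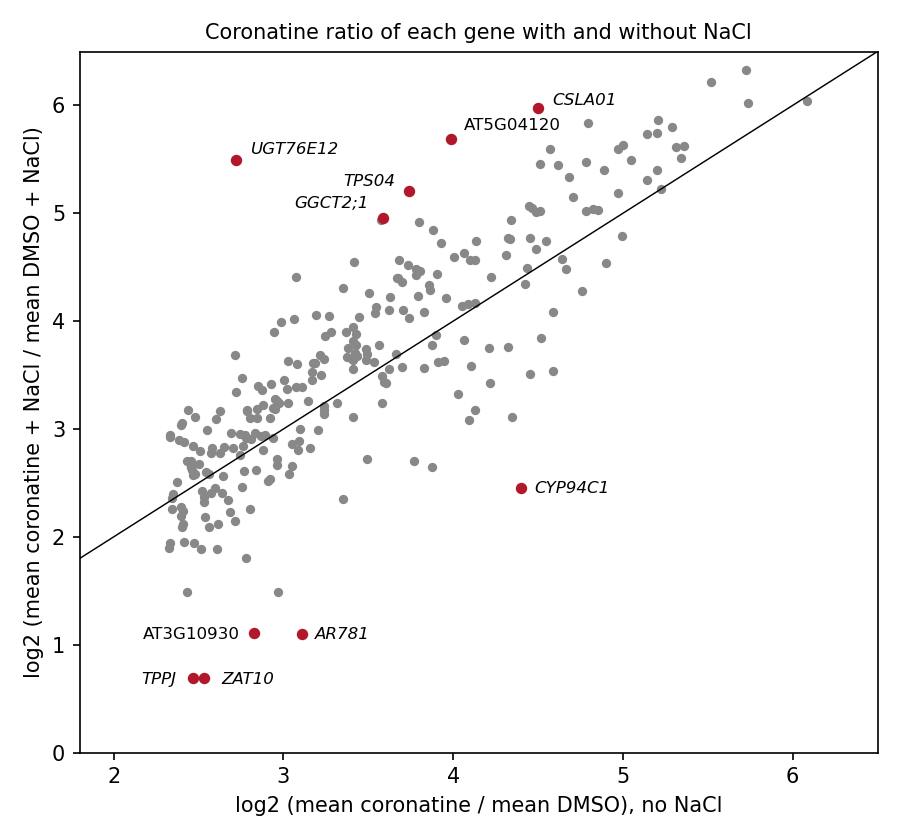
Each point is one of the 273 genes, by log2 of the mean coronatine over mean DMSO level without NaCl (x axis, used to choose the genes) and with NaCl (y axis); the line marks equal ratios. UGT76E12 (ratio 45.1 with NaCl, 6.60 without) lies far above the line, and ZAT10 (1.61 with NaCl, 5.79 without) and TPPJ far below it.

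Coronatine libraries with NaCl were set beside coronatine libraries without NaCl, which helped to choose the members, so the values are given with no test. The median ratio of coronatine with NaCl to coronatine was 1.33, and 233 members were above 1. In 199 members every library with NaCl was above every library without, against 22.3% of all genes. LSU1, a gene of the sulfur deficiency response, had 10239, 8110 and 6969 normalized counts in coronatine with NaCl, against 1439, 2131 and 831 in coronatine. SDI1 had 10431, 8946 and 8257 in coronatine with NaCl, against 2100, 2861 and 1244 in coronatine. Both genes are also higher in DMSO with NaCl than in DMSO, LSU1 by a ratio of 4.85 and SDI1 by 2.59. CYP79B2 (AT4G39950), which acts beside CYP79B3, was lower with NaCl, with 6980, 7639 and 7140 in coronatine with NaCl, against 13230, 13360 and 14805 in coronatine. In DMSO the median ratio of NaCl to no NaCl was 1.13 over the members, with 33 members at 2 or more, and 0.999 over all genes. The DMSO libraries without NaCl also helped to choose the members, which tilts the members' ratios upward, so no test is given.

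**Figure D4:**
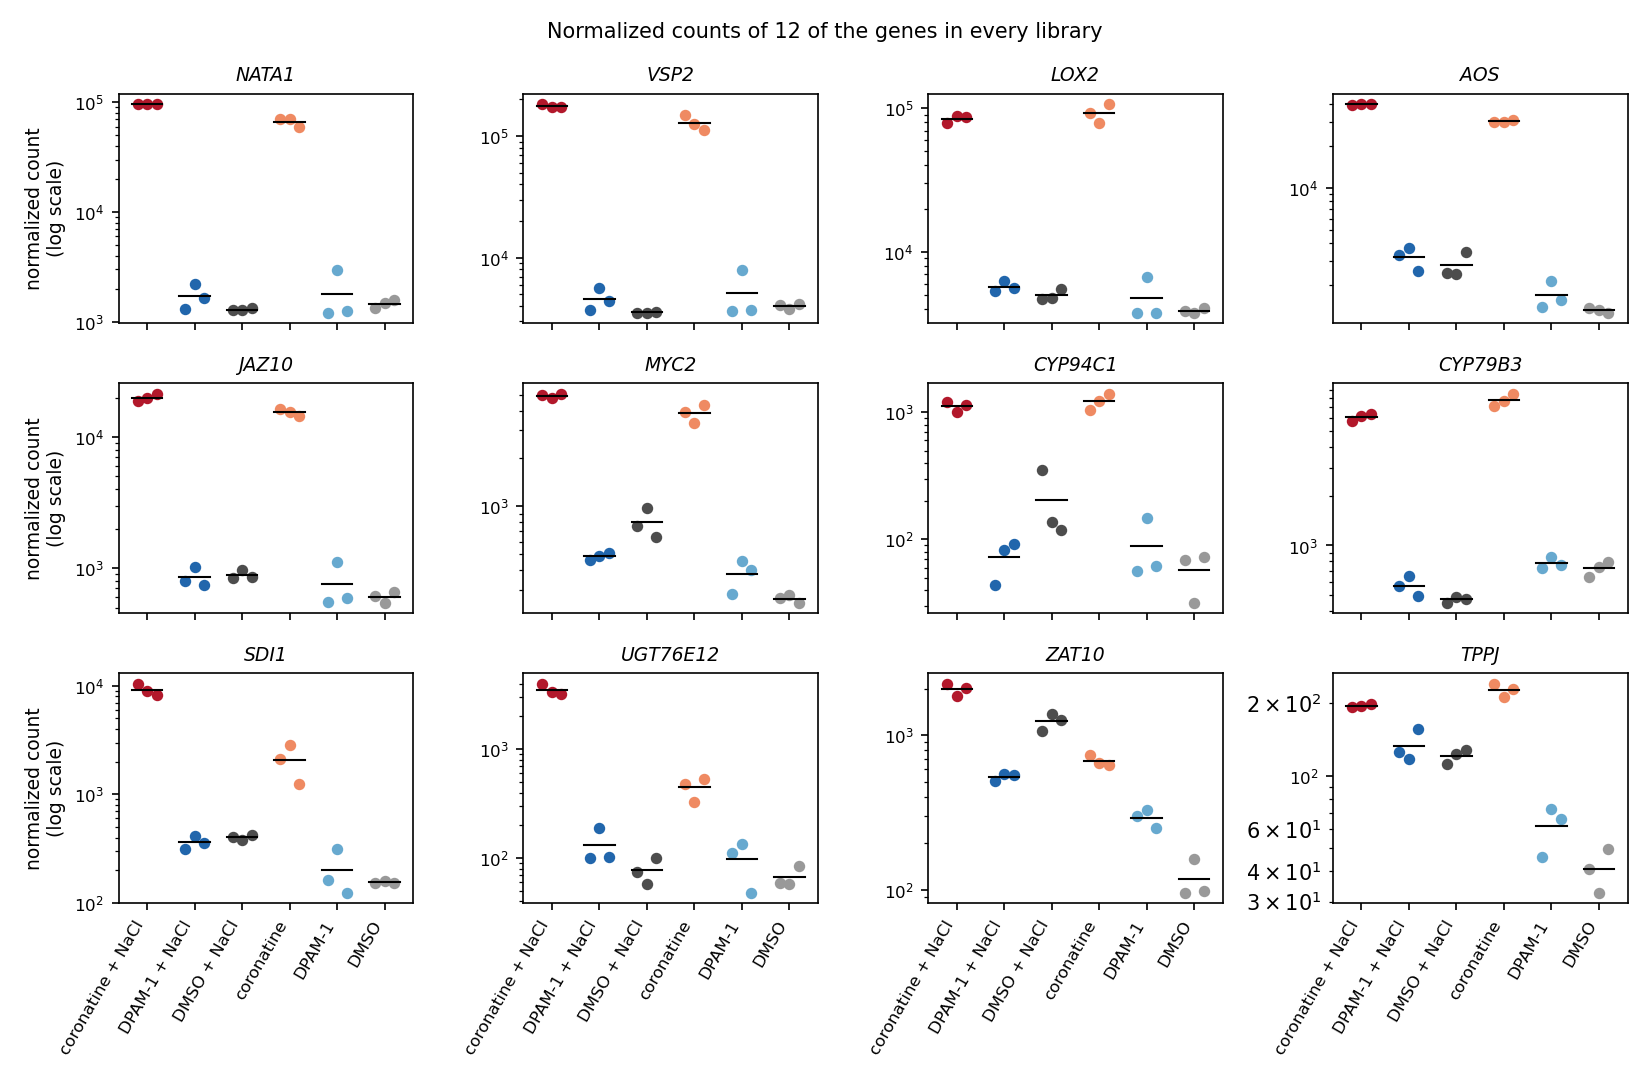
Normalized counts (log scale) of 12 of the genes in all 18 libraries, with the 3 NaCl groups on the left and the 3 groups without NaCl on the right; points are libraries and lines are group means. In all 12 genes the coronatine libraries lie above the DMSO libraries of the same NaCl condition, and the distance with NaCl is small for ZAT10 and TPPJ.

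DPAM-1 with NaCl was compared with DMSO with NaCl to ask whether this compound moves the coronatine-raised genes. The test called 2 members higher and 6 lower. Over all genes 0.176% were called higher and 0.401% lower. The median log2 fold change of the members was 0.22, that of all genes 0.00, and 219 of the 273 were above 0. In 88 members every DPAM-1 library with NaCl was above every DMSO library with NaCl, against 9.74% of all genes, and in 19 every one was below, against 7.93%. The mean ratio of a member was at most 1.76. By library the median ratio to the mean of DMSO with NaCl was 1.09 in replicate 1, 1.25 in replicate 2 and 1.12 in replicate 3. The 5 root hair markers summed to 2388 to 2513 in DPAM-1 with NaCl against 2630 to 3444 in DMSO with NaCl, with 1 called lower. The 4 endodermis markers summed to 1650 to 1837 in DPAM-1 with NaCl against 1412 to 1495 in DMSO with NaCl, also without overlap, with 0 called. The part of these markers in the result was not tested.

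The members called lower included 3 transcriptional regulators. ZAT10 had 505, 565 and 549 normalized counts in DPAM-1 with NaCl, against 1063, 1381 and 1248 in DMSO with NaCl, a log2 fold change of -1.19 ± 0.13 (edgeR adjusted p = 4.73e-05). MYC2 had 458, 490 and 507 in DPAM-1 with NaCl, against 751, 981 and 645 in DMSO with NaCl, -0.71 ± 0.14 (edgeR adjusted p = 0.0121). JAZ1 had 1492, 1541 and 1324 in DPAM-1 with NaCl, against 2304, 1948 and 1901 in DMSO with NaCl, -0.51 ± 0.11 (edgeR adjusted p = 0.0209). In these genes every DPAM-1 library lies below every DMSO library, and ZAT10 has the widest gap. AR781 (-0.73 ± 0.15), AT3G10930 (-0.96 ± 0.21) and the calcium sensor CML38 (-0.94 ± 0.21) were the other calls, and CYP94C1 at -1.58 ± 0.38 did not pass (edgeR adjusted p = 0.0649). The members called higher were BGLU21 (AT1G66270), a β-glucosidase that cleaves scopolin, and FLR1 (AT3G12145), annotated as a leucine-rich repeat protein. BGLU21 had 2767, 3051 and 3010 in DPAM-1 with NaCl, against 2348, 2150 and 2381 in DMSO with NaCl, 0.35 ± 0.07 (edgeR adjusted p = 0.0156), and FLR1 was at 0.58 ± 0.12 (edgeR adjusted p = 0.0165).

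Of these 8 calls, that of ZAT10 held without each single library of the compared groups in turn. Without DPAM-1 replicate 2 with NaCl the other 7 ended, leaving 0 higher and 1 lower, and without DPAM-1 replicate 1 with NaCl BGLU21 and ZAT10 were left. Without DMSO replicate 2 with NaCl 0 were called higher and 4 lower, and JAZ1 and ZAT10 were still among them. Without DMSO replicate 3 with NaCl 7 were called higher and 6 lower, and CML38 and AR781 were lost. Without DPAM-1 replicate 3 with NaCl 4 were called higher and 3 lower, and BGLU21, JAZ1, CML38 and AR781 were lost, and without DMSO replicate 1 with NaCl the calls of FLR1 and JAZ1 ended. DESeq2 called 11 higher and 8 lower, with all 8 edgeR calls among them.

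Without NaCl, DPAM-1 and DMSO share their DMSO libraries with the rule, so no test is given. The median ratio of the members was 1.2, and 1.03 without DPAM-1 replicate 2, an alternative chosen after seeing the data. The number of members above 1 was 244 with that library and 161 without it. By library, the median ratio to the DMSO mean was 1.01 in replicate 1, 1.50 in replicate 2 and 1.06 in replicate 3. All 3 DPAM-1 libraries were above all DMSO libraries in 75 members (27.5%), against 10.2% of all genes. VSP2 had 3668, 7952 and 3686 normalized counts after DPAM-1, against 4100, 3785 and 4161 in DMSO, and JAZ10 had 553, 1114 and 588 after DPAM-1, against 615, 543 and 662 in DMSO. In both genes replicate 2 alone stands above DMSO. ZAT10 does not follow that pattern, with 302, 327 and 250 after DPAM-1, against 95.6, 159 and 97.9 in DMSO, a ratio of 2.49, and of 2.35 without replicate 2. CML38 was at a ratio of 2.13, and 2.07 without replicate 2. The cause of the high replicate was not tested.

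**Figure D5:**
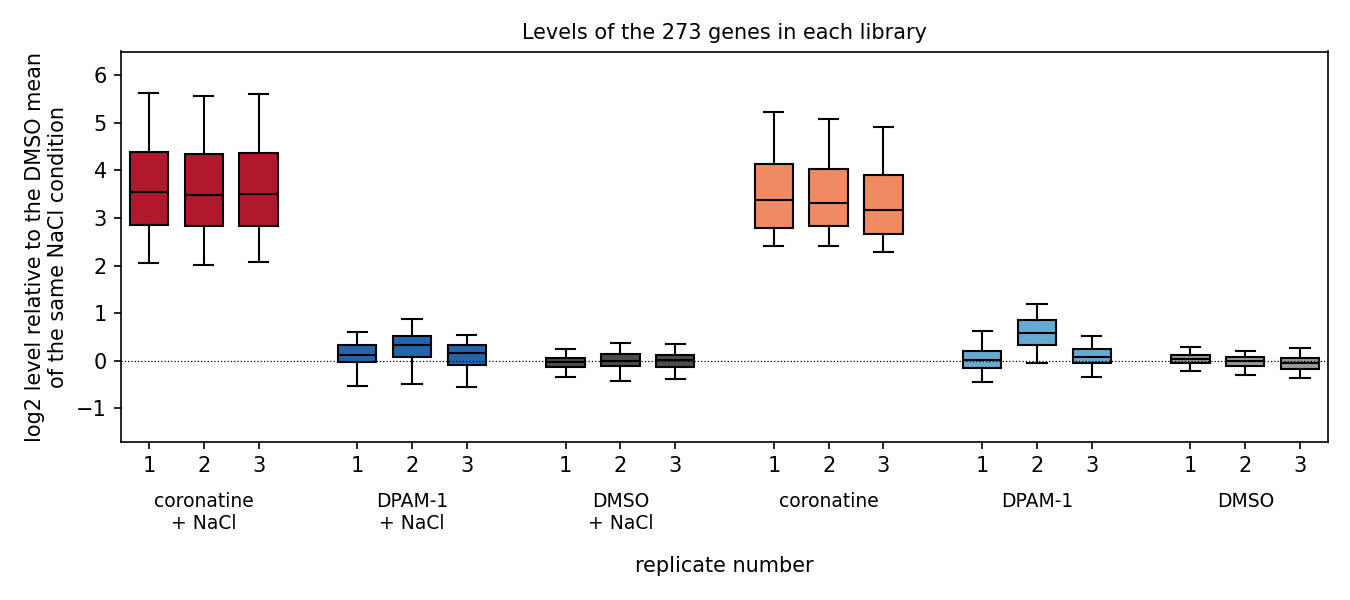
Distribution over the 273 genes of log2 level relative to the DMSO mean of the same NaCl condition, one box per library (line, median; box, quartiles; whiskers, percentiles 5 to 95), grouped by treatment. Coronatine boxes lie far above 0, the DPAM-1 replicate 2 box without NaCl lies above those of replicates 1 and 3 (median ratio 1.50 against 1.01 and 1.06), and DMSO boxes lie near 0 by construction.

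Coronatine with NaCl against DPAM-1 with NaCl shares its libraries with the 2 comparisons above and gives the compounds at the same dose of 5 µM and the same times. All 273 members were called higher after coronatine and 0 lower, by edgeR and by DESeq2, and 273 had an unadjusted p under 0.05; over all genes 21.4% were called higher and 20.9% lower, 42.4% in either direction. The median log2 fold change was 3.39, and the lowest was that of TPPJ at 0.55 ± 0.16 (edgeR adjusted p = 0.0089). TPPJ had 192, 194 and 199 normalized counts in coronatine with NaCl, against 126, 118 and 156 in DPAM-1 with NaCl, and its call ended with scaling by library totals alone. MYC2 was at 3.36 ± 0.14 and ZAT10 at 1.89 ± 0.13. Cell type markers also differed between these libraries: all 4 endodermis markers were called lower, at a median log2 fold change of -0.56, and summed to 1011 to 1370 in coronatine with NaCl against 1650 to 1837 in DPAM-1 with NaCl. Of the root hair markers 4 of 5 were called higher, with sums of 3592 to 3957 in coronatine with NaCl against 2388 to 2513 in DPAM-1 with NaCl. Both myrosin cell markers were called higher, with sums of 7293 to 7725 in coronatine with NaCl against 4167 to 4804 in DPAM-1 with NaCl. Of the 5 shoot markers 1 was called higher and 2 lower, and 0 of 2 guard cell markers were called. The part of these markers in the result was not tested.

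In DPAM-1, NaCl could be tested between libraries that the rule did not use, though all 18 libraries helped to set the spread in the fit. In DPAM-1 with NaCl against DPAM-1, 57 members were called higher and 8 lower, and over all genes 6.92% were called higher and 5.33% lower. The median log2 fold change of the members was 0.16. Without DPAM-1 replicate 2, the library that stands apart, 100 were called higher and 3 lower, of which 53 and 3 were shared with the full set of libraries. Leaving out other libraries gave 32 higher and 10 lower for DPAM-1 replicate 1, 29 and 7 for DPAM-1 replicate 3, and 37 and 3 for replicate 1 of DPAM-1 with NaCl. Leaving replicate 3 of DMSO and of coronatine, both without NaCl, out of the fit gave 65 higher and 12 lower. Of the 57, 12 had a log2 fold change of at least 1.

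By list, all 3 members of the glutathione transferase list and both stress transcription factor members were called higher with NaCl in DPAM-1. So were 6 of 7 jasmonate biosynthesis members and 2 of 5 sulfur and glutathione members, and 0 members of these lists were called lower. Of all measured genes of these lists, in that order, 8 of 25, 13 of 20, 7 of 18 and 12 of 26 were called higher. Of the stress transcription factors 3 were called lower, and of the other lists 0. Of the 5 jasmonate conjugation and catabolism members 3 were also called higher and 0 lower. Of 12 wound and anti-herbivore members and of 8 ER body and myrosinase members, 0 were called in either direction. Over all genes 12.2% were called in either direction, so lists this short can easily hold none. BGLU18 and JAL35 stand in both lists. Of all 21 measured wound and anti-herbivore genes 0 were called, and of all 19 measured ER body and myrosinase genes 1 was called higher. WRKY40 was at 1.04 ± 0.19 (edgeR adjusted p = 0.000544) and ZAT10 at 0.88 ± 0.14 (edgeR adjusted p = 0.00013). GSTU5, a glutathione transferase, had 4246, 4272 and 3814 normalized counts in DPAM-1 with NaCl, against 1962, 2599 and 2096 in DPAM-1, a log2 fold change of 0.88 ± 0.10 (edgeR adjusted p = 1.27e-06). AR781, a member in none of the lists, had 504, 427 and 432 in DPAM-1 with NaCl, against 145, 205 and 129 in DPAM-1, 1.51 ± 0.17 (edgeR adjusted p = 1.96e-06). The ERF-type factors AT2G22200 and RAP2.6 (AT1G43160), also in no list, were at 1.33 ± 0.17 and 1.08 ± 0.15, KIN1 at 1.39 ± 0.20, GSTU4 at 1.33 ± 0.20 and LSU1 at 1.52 ± 0.23. Among the jasmonate biosynthesis members AOS was at 0.89 ± 0.14 (edgeR adjusted p = 0.000103), which had 3289, 3704 and 2542 in DPAM-1 with NaCl, against 1399, 2139 and 1575 in DPAM-1. LOX2, at 0.26 ± 0.15, did not pass. VSP2, at -0.16 ± 0.20, did not pass either. Of the drought and osmolyte members 2 of 3 were called higher, as were 18 of all 21 measured genes of that list. Of the JAZ members 1 of 7 was called higher, and 2 of all 9 measured genes of the list, against 6.92% of all genes. That member was JAZ1 at 0.43 ± 0.11, a call lost when either replicate 1 or replicate 3 of DPAM-1 was left out.

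Of the 8 members called lower with NaCl in DPAM-1, 3 were indole glucosinolate P450 genes. Of the 12 members of the tryptophan and indole glucosinolate list these 3 were called lower and 1 higher, the regulator MYB34 at 0.52 ± 0.10, with a median log2 fold change of 0.01; of all 26 genes of the list 4 were called lower and 1 higher. CYP79B3 had 563, 648 and 490 normalized counts in DPAM-1 with NaCl, against 730, 853 and 757 in DPAM-1, -0.47 ± 0.10 (edgeR adjusted p = 0.00279). CYP79B2 was at -0.37 ± 0.09 (edgeR adjusted p = 0.00483) and CYP83B1 (AT4G31500), which acts after both, at -0.39 ± 0.10 (edgeR adjusted p = 0.0128). These 3 were the lower calls left without DPAM-1 replicate 2, but that of CYP83B1 ended without replicate 3 of DPAM-1 with NaCl. The other members called lower were AT5G47950, annotated as an acyltransferase, AT1G29025, MSRB9, MES7 and CYP708A2. In coronatine the 3 P450 genes were also lower with NaCl: CYP83B1 had 8733, 9082 and 8698 in coronatine with NaCl, against 13724, 17600 and 16827 in coronatine, a value given without a test.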

How the data were processed

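RNA of whole seedlings was sequenced in 18 libraries by Lasy-Seq version 1.1, which reads transcripts from their 3′ ends, per the labels' protocols. The submitters' processing notes name bcl2fastq, Trimmomatic, HISAT2, featureCounts, DESeq2 and the TAIR10 build, with no versions or roles. The authors deposited a table of raw read counts per gene and a table of normalized counts, a signal in which each column is the raw count divided by 1 size factor per library. Both tables held the same 14229 genes, and the deposited columns were matched to samples by name.

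Members were chosen from the normalized counts by the ratio of group means. The members and lists were chosen with earlier results of these data known, and families, promoters to show and neighbouring genes were chosen after the members were seen. Tests used edgeR 4.0.16 with limma 3.58.1 in R 4.3.3 on the raw counts: TMM scaling, filterByExpr, which removed 0 genes, 1 quasi-likelihood fit with a mean for each of 6 groups, and Benjamini-Hochberg adjustment over 14229 genes with a threshold of 0.05. The biological coefficient of variation was 10.4%, and TMM factors lay between 0.847 and 1.13. The edgeR script was tested on simulated data. DESeq2 1.42.0, other scalings, filters, a replicate block and leaving out each library were alternatives. Ratios, motifs and figures were computed with Python 3.11.15, pandas 2.3.3, numpy 2.4.6 and matplotlib 3.10.9.

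Gene names, gene order and the bases before gene starts came from the RefSeq annotation of TAIR10.1. The files carry no coordinates. Tandem or near-identical copies may share 3′ reads, and their values are uncertain. Genes were named by a rule: the 12 highest ratios, 3 on each side of the limit, up to 4 members of each list by ratio, up to 6 calls in each direction of each comparison by smallest p, the 5 widest gaps in each direction between ratios with and without NaCl, and 7 marker genes of the response. Members of families and neighbouring runs outside that rule, and JAZ2, JAZ3, JAZ6, MYB34, the markers RBCS1A and CA1 and other genes listed only by name, were chosen after their values were seen. Standard errors come from the fit.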

Additional observations from a re-analysis of the deposited data

Results flagged for a closer look

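In 10 of the named genes every coronatine library with NaCl was above every coronatine library without NaCl, while every DMSO library with NaCl was below every DMSO library without NaCl. The ratio of NaCl to no NaCl was 1.34 in coronatine and 0.878 in DMSO for JAL23, 1.44 and 0.886 for NATA1, 1.06 and 0.939 for BGLU18, 1.34 and 0.891 for VSP1, and 1.37 and 0.884 for VSP2. It was 1.26 in coronatine and 0.919 in DMSO for MES7, 2.25 and 0.808 for CSLA01, 1.19 and 0.693 for AT1G29025, 1.18 and 0.876 for PMSR2, and 1.16 and 0.885 for BGLU21. Over all members 21 (7.69%) had this pattern, against 0.647% of all genes. TPPJ had the opposite pattern, with a ratio of 0.857 in coronatine and 2.94 in DMSO. The members were chosen on the libraries without NaCl, and the difference between the effects was not tested.

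In 8 of the named genes every DPAM-1 library was above every DMSO library without NaCl and below every DMSO library with NaCl. The ratio of DPAM-1 to DMSO was 0.439 with NaCl and 2.49 without for ZAT10, 0.521 with NaCl and 2.13 without for CML38, 0.512 with NaCl and 1.9 without for AT3G10930, and 0.653 with NaCl and 1.88 without for WRKY40. It was 0.599 with NaCl and 1.68 without for AR781, 0.902 with NaCl and 1.51 without for LSU1, 0.612 with NaCl and 1.43 without for MYC2, and 0.708 with NaCl and 1.31 without for JAZ1. Over all members 11 (4.03%) had this pattern, against 0.52% of all genes. The DMSO libraries without NaCl helped to choose the members, which tilts this share and the ratios without NaCl upward. The difference was not tested. Without DPAM-1 replicate 2, the ratio without NaCl was 2.35 for ZAT10, 2.07 for CML38, 1.83 for AT3G10930, 1.61 for WRKY40, 1.45 for AR781, 1.3 for LSU1, 1.28 for MYC2 and 1.16 for JAZ1, all still above 1.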

How the results depend on the processing

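In coronatine with NaCl against DMSO with NaCl and against DPAM-1 with NaCl, 273 members were called higher under each single library left out, DESeq2, the replicate block and the other filters and factors, except that scaling by library totals alone left 272 in both and a log2 fold change of at least 1 left 271 and 272. In DPAM-1 with NaCl against DMSO with NaCl the 8 calls (2 higher, 6 lower) became 1 (0 higher, 1 lower) at a log2 fold change of at least 1, 20 (14 higher) when replicate 3 of DMSO and of coronatine, both without NaCl, was left out of the fit, 19 (11 higher) with DESeq2, and 6 higher and 2 lower when those groups alone were fitted. Leaving out 1 library gave 1 to 13 calls, 0 to 7 higher and 1 to 7 lower. In DPAM-1 with NaCl against DPAM-1 the 65 calls became 12 (12 higher, 0 lower) at a log2 fold change of at least 1, and 36 to 103 (29 to 100 higher, 3 to 10 lower) when 1 library was left out. The cause of these moves was not tested. Among the named members that were followed singly through these settings, no direction reversed, and the remaining members were not checked for this. A ratio of at least 8 left 170 members, other settings of the rule gave 232 to 355, and leaving out 1 library gave 269 to 287. In the 100 bases before the start CACGTG was in 8.46% of members (4.58% of measured genes), AACGTG in 11.4% (3.46%), CACATG in 8.46% (4.26%), TTGAC in 22.1% (21.3%) and TATAAA in 31.2% (23.9%), since a shorter window holds fewer matches. In the tested comparisons samples of the same replicate number did not deviate together (correlations from -0.0475 to 0.0417), and the fit with the replicate block gave 9 calls (3 higher, 6 lower) and 68 (60 higher, 8 lower) in the comparisons with 8 and 65. In coronatine against DMSO without NaCl, which chose the members and was not tested, same-numbered samples did deviate together, with correlations of 0.127, 0.302 and 0.497.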
